A study of Homo sapiens with 6 samples.

Results

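The IFIT genes encode interferon-induced proteins with tetratricopeptide repeats. Their levels were measured in A549 cells that did or did not carry a CELF6 plasmid. The members were taken by symbol, as the rows named IFIT1, IFIT2, IFIT3 and IFIT5, and they make up 4 of the 29889 genes in the table. A549 is a human lung adenocarcinoma line, and CELF6 is an RNA-binding protein of the CELF family. Cells were transfected through Lipofectamine 2000 with the pIRES-hrGFP-1a vector carrying CELF6 (CELF6-OE) or with the empty vector (Control), and RNA was taken at 48 h from 3 biological replicates of each. Every library therefore comes from plasmid-transfected cells of 1 line, and no untransfected or interferon-treated cells were analysed here. The comparison asks which transcripts differ when CELF6 is raised.

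IFIT genes are silent or low in most resting cells and are switched on when double-stranded RNA, foreign DNA or interferon is sensed, through STAT and IRF factors that bind interferon-stimulated response elements in their promoters. The proteins have no known enzyme activity and act by binding. IFIT1 binds RNA whose cap lacks 2'-O methylation or that ends in a 5' triphosphate, IFIT2 and IFIT3 join IFIT1 in complexes, IFIT3 stabilises IFIT1 on RNA, and IFIT5 binds 5'-phosphate RNA on its own. IFIT1 and IFIT2 have also been found to bind subunits of the initiation factor eIF3.

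CELF6 itself was counted 18646, 20789 and 11571 times in CELF6-OE replicates 1 to 3 and 0 times in each Control library. Against a limit of 3 counts in a Control library, its share of counts was at least 4163-fold higher in each CELF6-OE library. CELF6-OE replicate 3 held the least CELF6, at 172.27 FPKM against 270.09 and 294.94 in replicates 1 and 2 (a level in fragments scaled by transcript length and by the mapped fragments of the library). The libraries held 33748328 to 37920700 counts on genes. The epithelial keratins KRT7, KRT8 and KRT18 were abundant and made up nearly all of the sum of 6 epithelial markers. This sum was 5041 to 5793 FPKM under CELF6 against 6177 to 7029 FPKM in Control. EPCAM, another of the 6, was low, at 0.82 to 1.2 FPKM under CELF6 and 0.91 to 1.77 in Control. The adhesion gene CDH1 fell (log2 fold change -1.62). Smaller decreases were seen for KRT8 (-0.47, edgeR adjusted p = 0.0053), KRT18 (-0.36, edgeR adjusted p = 0.021) and KRT19 (-0.22, edgeR adjusted p = 0.036). KRT7 stood at -0.09 (edgeR adjusted p = 0.577) and EPCAM at -0.41 (edgeR adjusted p = 0.24). The alveolar type II markers SFTPA1, SFTPB, SFTPC and NKX2-1 were absent or near 0, with 0 to 6 counts in a library, and the fifth, NAPSA, had 17 to 54 counts (log2 fold change -0.86, edgeR adjusted p = 0.0536). Of the other cell types, the 6 leukocyte markers in the table, of 8 listed, summed to 3.67 to 5.03 FPKM under CELF6, against 3.60 to 4.31 in Control, mostly CD14, while PTPRC had 0 to 2 counts. The 4 fibroblast markers in the table, of 5 listed, summed to 0.25 to 0.33 and 0.36 to 0.43 FPKM, and the 2 of 4 endothelial markers with an FPKM value to 0.01 to 0.03 and 0.04 to 0.07. ITGAM and PECAM1 fell among these markers, at means of 0.337 and 0.0133 FPKM in CELF6-OE. The part of such cells in the IFIT values was not tested.

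The 4 members lie head to tail on the plus strand of chromosome 10 (GRCh38, GENCODE v44), within 118.952 kb. Each has 2 exons in its principal transcript, a short first exon and a long last one. IFIT2 spans chr10:89302046-89309271, IFIT3 chr10:89327997-89340968, IFIT1 chr10:89392623-89406487 and IFIT5 chr10:89414568-89420997. IFIT1B, a related gene, sits between IFIT3 and IFIT1 at chr10:89378056-89385205. LIPA, the lysosomal acid lipase gene, runs on the minus strand across IFIT2, IFIT3, IFIT1B and IFIT1 but not IFIT5, and none of its exon bases (0) lie in an exon of these transcripts.

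Promoters are shown because 3 of the members fell together and interferon response elements are what the family is known for. RefSeq promoter sequences (GRCh38.p14, plus strand, 250 bases before to 50 bases after the start site) were available for 3 of the 4 members. None was available for IFIT2, so its promoter was not searched. Capitals mark the core letters of such an element, GAAA, then any 2 bases, then GAAA, searched on both strands with overlaps allowed. All matches were on the minus strand and so read as TTTC, 2 free bases and TTTC in the sequences. IFIT3 has an upstream start (chr10:89327747-89328046) and a downstream one (chr10:89332279-89332578). IFIT1 is at chr10:89392373-89392672 and IFIT5 at chr10:89414318-89414617, and IFIT1B, at chr10:89377806-89378105, is given as the neighbour that was hardly detected.
IFIT3 upstream: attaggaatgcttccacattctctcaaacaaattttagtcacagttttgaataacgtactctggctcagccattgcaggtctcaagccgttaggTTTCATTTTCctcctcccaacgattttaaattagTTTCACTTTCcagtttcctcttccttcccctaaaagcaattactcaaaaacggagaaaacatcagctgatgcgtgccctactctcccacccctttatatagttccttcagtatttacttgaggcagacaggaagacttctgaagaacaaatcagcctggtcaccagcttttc
IFIT3 downstream: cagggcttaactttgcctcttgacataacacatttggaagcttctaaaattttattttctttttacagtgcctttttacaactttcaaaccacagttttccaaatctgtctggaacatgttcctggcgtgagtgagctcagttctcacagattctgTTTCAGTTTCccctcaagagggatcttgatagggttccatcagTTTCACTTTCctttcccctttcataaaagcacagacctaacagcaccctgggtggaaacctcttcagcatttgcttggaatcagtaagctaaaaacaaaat
IFIT1: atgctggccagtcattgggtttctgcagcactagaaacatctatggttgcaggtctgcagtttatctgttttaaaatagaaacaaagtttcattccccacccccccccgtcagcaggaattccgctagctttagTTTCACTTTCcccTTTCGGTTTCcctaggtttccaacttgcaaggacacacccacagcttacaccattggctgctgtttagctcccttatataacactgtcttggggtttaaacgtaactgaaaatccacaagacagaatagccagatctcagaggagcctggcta
IFIT5: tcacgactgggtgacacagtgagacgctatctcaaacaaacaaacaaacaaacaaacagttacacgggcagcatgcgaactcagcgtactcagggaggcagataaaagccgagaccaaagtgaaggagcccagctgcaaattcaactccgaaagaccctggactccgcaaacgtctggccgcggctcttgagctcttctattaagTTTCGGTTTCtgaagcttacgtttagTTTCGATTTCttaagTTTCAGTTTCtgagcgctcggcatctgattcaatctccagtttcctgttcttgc
IFIT1B: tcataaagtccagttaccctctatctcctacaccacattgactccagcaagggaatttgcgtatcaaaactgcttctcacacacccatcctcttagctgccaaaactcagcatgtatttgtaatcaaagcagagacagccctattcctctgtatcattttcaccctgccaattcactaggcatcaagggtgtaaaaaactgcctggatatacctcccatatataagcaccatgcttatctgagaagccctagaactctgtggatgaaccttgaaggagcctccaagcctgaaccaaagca
The matches began at -156 and -122 from the upstream IFIT3 start, at -94 and -51 from the downstream one, at -116 and -103 from that of IFIT1, and at -45, -19 and -4 from that of IFIT5. IFIT5, the member with the smallest difference, thus had 3 matches, IFIT1 had 2 and IFIT1B had 0. Of 35116 human promoters of the same length, 3.57% held at least 1 match, 0.259% at least 2 and 0.0370% at least 3. Among tested genes with a promoter in the table, 20.4% of the 426 with a match and 4.68% of the 9948 without one were called lower. Of the 46 with at least 2 matches 25 were (54.3%), IFIT1 and IFIT3 among them. IFIT5 belongs to the same 46 and was not called. A match is a run of letters and not a measured binding site, and the part of such elements in the decreases was not tested.

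IFIT1, IFIT2 and IFIT3 fell in CELF6-OE cells and IFIT5 was not called. IFIT2 fell the furthest, to 15.5% of Control, followed by IFIT3 at 26.7% and IFIT1 at 43.1%, whereas IFIT5 stood at 83.1%. A gene was called when its adjusted p from edgeR's quasi-likelihood test (Benjamini-Hochberg over 15847 genes) was under 0.05 and its fold change at least 1.5. By this rule 3 of the 4 members were called lower and 0 higher, against 5.82% of all tested genes called lower and 1.35% called higher. The median log2 fold change was -1.56 over the 4 members and 0.01 over all tested genes. In such bulk RNA, fewer cells expressing a gene and less of its RNA per cell cannot be told apart.

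**Figure D1:**
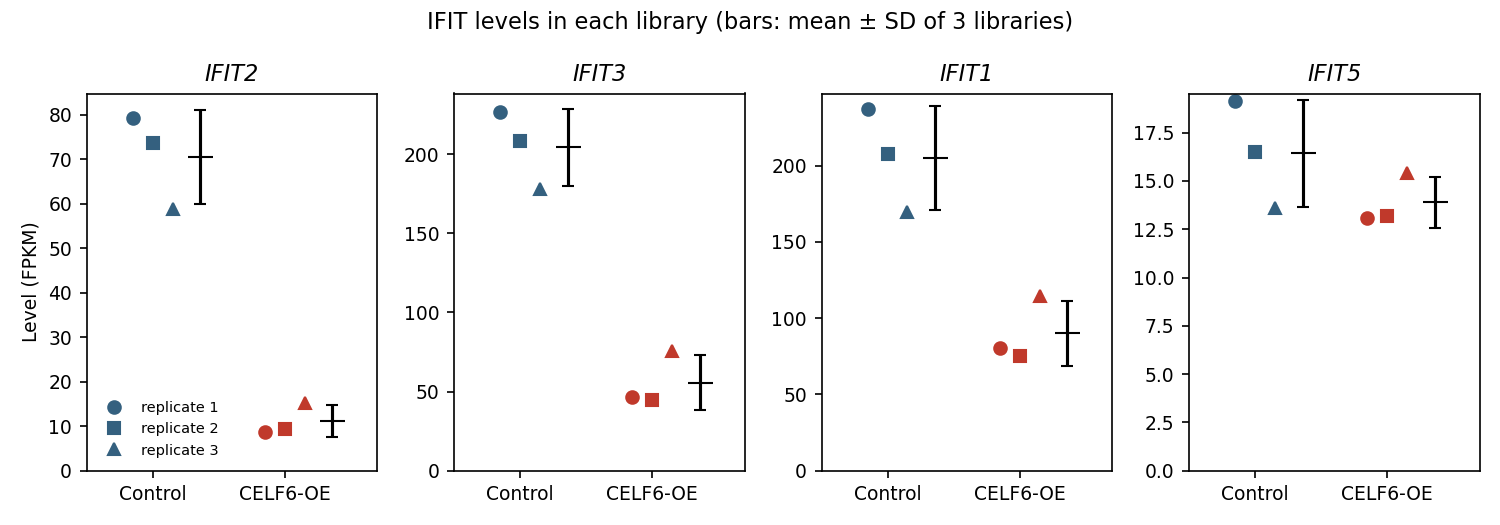
Level of each IFIT gene (FPKM, linear axis from 0) in the 3 Control and 3 CELF6-OE libraries, 1 symbol per replicate, with black bars for the mean ± SD (n = 3). The groups are separate for IFIT2, IFIT3 and IFIT1 and overlap for IFIT5, and CELF6-OE replicate 3 (triangle) is the highest of its group in each panel.

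IFIT1, the member that recognises incompletely capped RNA, was counted 13494, 12816 and 18602 times in CELF6-OE replicates 1 to 3 and 41480, 37715 and 30901 times in Control replicates 1 to 3. Its level was 80.59, 74.97 and 114.19 FPKM in CELF6-OE and 237.36, 207.4 and 169.83 FPKM in Control. The groups did not overlap, and the lowest Control library stood 1.49 times above the highest CELF6-OE library. Mean levels were 89.9 ± 21.2 FPKM in CELF6-OE and 205 ± 33.8 FPKM in Control (SD, n = 3). IFIT1 fell by 2.32-fold, with a log2 fold change of -1.21 (SE 0.15, 95% interval -1.54 to -0.89, edgeR adjusted p = 0.000255). Of the 31-base words in its transcript, 2.25% also occur in other IFIT genes, mainly IFIT1B, and 3.77% in other genes of any kind, so a small part of its reads may have lacked a unique location.

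IFIT2, which joins IFIT1 and IFIT3 in complexes and has been linked to apoptosis, was counted 1100, 1217 and 1888 times in CELF6-OE and 10475, 10119 and 8096 times in Control. In level this was 8.69, 9.41 and 15.32 FPKM against 79.25, 73.57 and 58.83 FPKM. The lowest Control library stood 3.84 times above the highest CELF6-OE library, the widest gap in the family. The means were 11.1 ± 3.64 and 70.6 ± 10.5 FPKM (SD, n = 3). IFIT2 fell by 6.45-fold (log2 fold change -2.69, SE 0.18, 95% interval -3.10 to -2.28, edgeR adjusted p = 1.1e-05) and had the 63rd lowest log2 fold change of the 15847 tested genes. None of its 31-base words (0) occurs in another gene.

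IFIT3, the partner that stabilises IFIT1, was counted 4467, 4349 and 7029 times in CELF6-OE and 22638, 21686 and 18520 times in Control. Its level was 46.62, 44.45 and 75.4 FPKM in CELF6-OE and 226.36, 208.38 and 177.85 FPKM in Control. Here too the groups were apart, with the lowest Control library 2.36 times above the highest CELF6-OE library. The means were 55.5 ± 17.3 and 204 ± 24.5 FPKM (SD, n = 3). IFIT3 fell by 3.75-fold (log2 fold change -1.91, SE 0.17, 95% interval -2.28 to -1.53, edgeR adjusted p = 3.98e-05). None of its 31-base words (0) is in another IFIT gene, although 8.77% occur in some other gene.

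IFIT5, which binds RNA alone, was counted 1906, 1963 and 2184 times in CELF6-OE and 2913, 2614 and 2157 times in Control. Its level was 13.08, 13.19 and 15.4 FPKM in CELF6-OE and 19.15, 16.52 and 13.62 FPKM in Control. The groups overlapped, since CELF6-OE replicate 3 lay above Control replicate 3. The means were 13.9 ± 1.31 and 16.4 ± 2.77 FPKM (SD, n = 3), with a log2 fold change of -0.27 (SE 0.10, 95% interval -0.49 to -0.04, edgeR adjusted p = 0.096). The interval spans 71.0% to 97.2% of Control, so a modest decrease is not told apart from nearly none. Without Control replicate 3 the log2 fold change was -0.37 with an adjusted p of 0.00644 by edgeR. With no filter on low counts the edgeR adjusted p was 0.00812, but the spread of single genes did not enter that fit. The fold change stayed under 1.5 in all 17 alternatives.

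With 3 libraries against 3, an exact two-sided permutation test of the FPKM means cannot go below p = 0.1. It gave 0.1 for IFIT1, IFIT2 and IFIT3 and 0.2 for IFIT5. Groups that did not overlap were also seen for genes that were not called, such as MAVS and RNMT. The share of all tested genes with such groups is not given here. The fold changes of the 3 called members were past the threshold in each of the 17 alternative fits, at -1.43 to -1.10 for IFIT1, -2.99 to -2.54 for IFIT2 and -2.20 to -1.77 for IFIT3. Their largest adjusted p over these fits were 0.0255, 0.00676 and 0.0103 in turn.

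Replicates differed in ways that the members shared in part. CELF6-OE replicate 3 was the highest CELF6-OE library for all 4 members, as it was for 31.2% of all tested genes. It exceeded the mean of replicates 1 and 2 by 1.47 times for IFIT1, 1.69 times for IFIT2, 1.66 times for IFIT3 and 1.17 times for IFIT5. The same library held 0.61 times the CELF6 FPKM of the other two, and the part of CELF6 dose in this was not tested. Leaving it out gave log2 fold changes of -1.43 for IFIT1, -2.99 for IFIT2, -2.20 for IFIT3 and -0.35 for IFIT5.

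Control replicate 1 was the highest and Control replicate 3 the lowest for all 4 members. This order also held for 37.0% of all tested genes and for 7 of 20 other interferon-induced effectors. The highest Control level was 1.40 times the lowest for IFIT1, 1.35 for IFIT2, 1.27 for IFIT3 and 1.41 for IFIT5. As a percentage of the Control geometric mean, IFIT2 was at 12.4, 13.4 and 21.9 in CELF6-OE replicates 1 to 3, IFIT3 at 22.9, 21.9 and 37.1, IFIT1 at 39.7, 36.9 and 56.3, and IFIT5 at 80.4, 81.1 and 94.6. The order IFIT2, IFIT3, IFIT1, IFIT5 was therefore the same in all 3 CELF6-OE libraries.

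The summed level of the 4 members was 148.98, 142.02 and 220.31 FPKM in CELF6-OE and 562.12, 505.87 and 420.13 FPKM in Control. In CPM, counts scaled to the library total, they took 604, 574 and 880 in the CELF6-OE libraries, against 2128, 1902 and 1574 in the Control libraries. The make-up of this sum differed too. IFIT1 took 52.9% ± 1.14 of the summed FPKM in CELF6-OE and 41.2% ± 0.921 in Control, and IFIT3 32.3% ± 1.69 and 41.3% ± 1.03 (SD, n = 3). IFIT2 took 6.47% ± 0.576 in CELF6-OE and 14.2% ± 0.288 in Control, and IFIT5 8.35% ± 1.21 and 3.30% ± 0.0891.

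**Figure D2:**
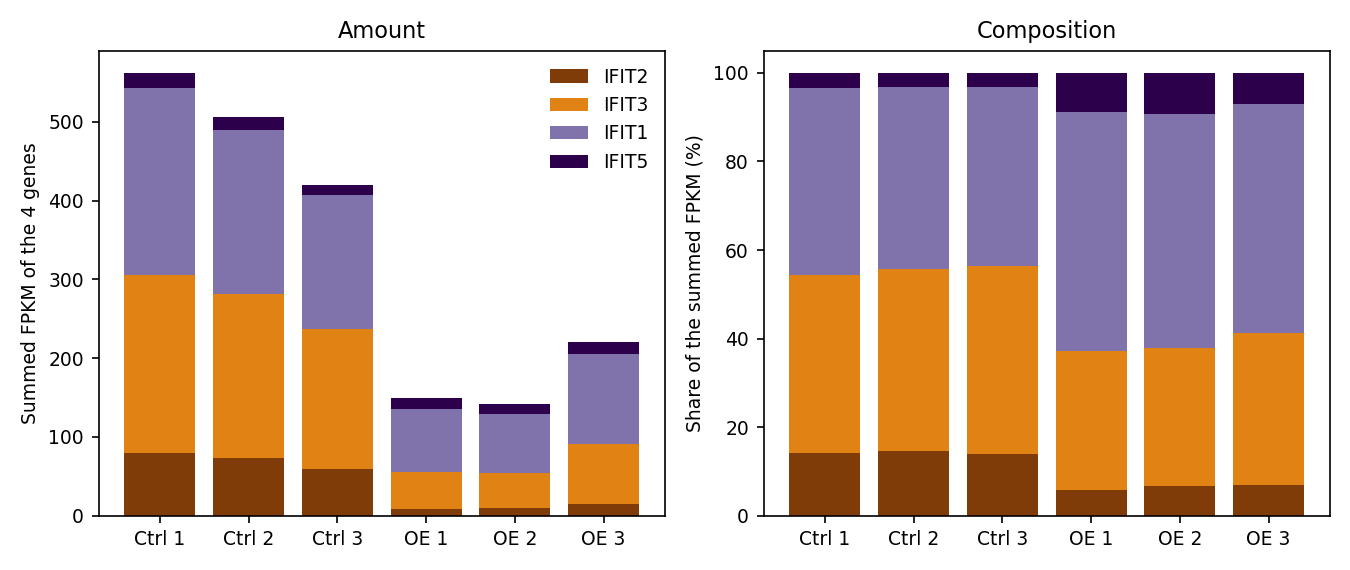
Left, summed FPKM of the 4 IFIT genes in each library, stacked by gene; right, each gene's share of that sum in percent (Ctrl, Control; OE, CELF6-OE; numbers are replicates). The CELF6-OE bars reach 142 to 220.3 FPKM and the Control bars 420.1 to 562.1, and the IFIT2 share is smaller and the IFIT5 share larger in each CELF6-OE library.

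In Control cells IFIT1 and IFIT3 stood highest with overlapping levels, IFIT2 came next and IFIT5 was lowest, and neither of the last steps overlapped. In CELF6-OE cells the ranges of IFIT1 and IFIT3 touched, since the highest IFIT3 value (75.4 FPKM) lay just above the lowest IFIT1 value (74.97 FPKM) from another library. Within each CELF6-OE library IFIT1 was above IFIT3, by 1.73, 1.69 and 1.51 times. IFIT2 and IFIT5 overlapped at the bottom, at 8.69 to 15.32 and 13.08 to 15.4 FPKM.

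Ratios between members within a library cancel what moves them together. IFIT1 over IFIT2 was 9.27, 7.97 and 7.45 in CELF6-OE and 2.995, 2.82 and 2.89 in Control, which is 2.83-fold higher under CELF6. IFIT1 over IFIT3 was 1.64-fold higher, at 1.73, 1.69 and 1.51 against 1.05, 0.995 and 0.955. IFIT2 over IFIT3 was 1.72-fold lower, at 0.186, 0.212 and 0.203 against 0.350, 0.353 and 0.331. In these libraries the 3 called members thus did not fall to the same extent.

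IFIT5 makes up the other 3 pairs. IFIT2 over IFIT5 was 0.664, 0.713 and 0.995 in CELF6-OE and 4.14, 4.45 and 4.32 in Control, 5.53-fold lower and the widest shift of the 6 pairs. IFIT3 over IFIT5 was 3.21-fold lower, and IFIT1 over IFIT5 1.96-fold lower. The last of these was 12.4, 12.6 and 12.5 in the Control libraries, although IFIT1 itself varied 1.40-fold among them. Over the 6 pairs no ratio overlapped between the groups. The share of other gene pairs with such separate groups is not given here. An exact two-sided permutation test of the log2 ratios gave p = 0.1 for each, the smallest that 3 against 3 allows. It was 0.1 after Benjamini-Hochberg adjustment over the 6.

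**Figure D3:**
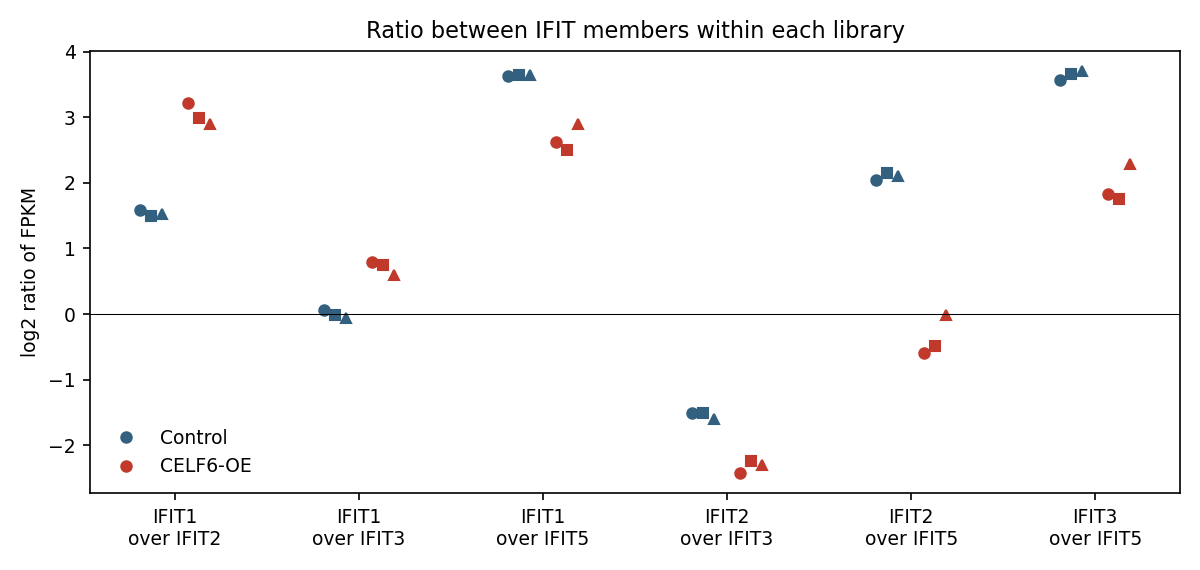
Log2 ratio of FPKM between each pair of IFIT genes in every library, with Control in blue and CELF6-OE in red and 1 symbol per replicate. In each of the 6 pairs the 3 Control points are separate from the 3 CELF6-OE points, with the widest shift, -2.47 on the log2 scale, for IFIT2 over IFIT5.

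The other genes of this name were at the limit of detection. IFIT1B was counted 2, 1 and 8 times under CELF6 and 1, 4 and 6 times without it, and the pseudogenes IFIT6P and IFIT1P1 had at most 1 count in any library. None of them was tested, and no difference could be seen at this depth.

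Within 200 kb of the cluster, CH25H, an interferon-induced gene for cholesterol 25-hydroxylase, was low but fell. It was counted 0, 3 and 8 times in CELF6-OE and 21, 29 and 28 times in Control (log2 fold change -2.71, SE 0.55, edgeR adjusted p = 0.00683). LIPA, on the opposite strand across IFIT2 to IFIT1, was counted 2323, 2267 and 2499 times in CELF6-OE and 3862, 3588 and 3360 times in Control. Its groups did not overlap, but its log2 fold change of -0.53 (SE 0.08, edgeR adjusted p = 0.000749) was short of the fold threshold. PANK1, a pantothenate kinase gene beyond IFIT5, had a log2 fold change of -0.15 (SE 0.18, edgeR adjusted p = 0.592). The remaining neighbours in the table had at most 8 counts in any library and were not tested.

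**Figure D4:**
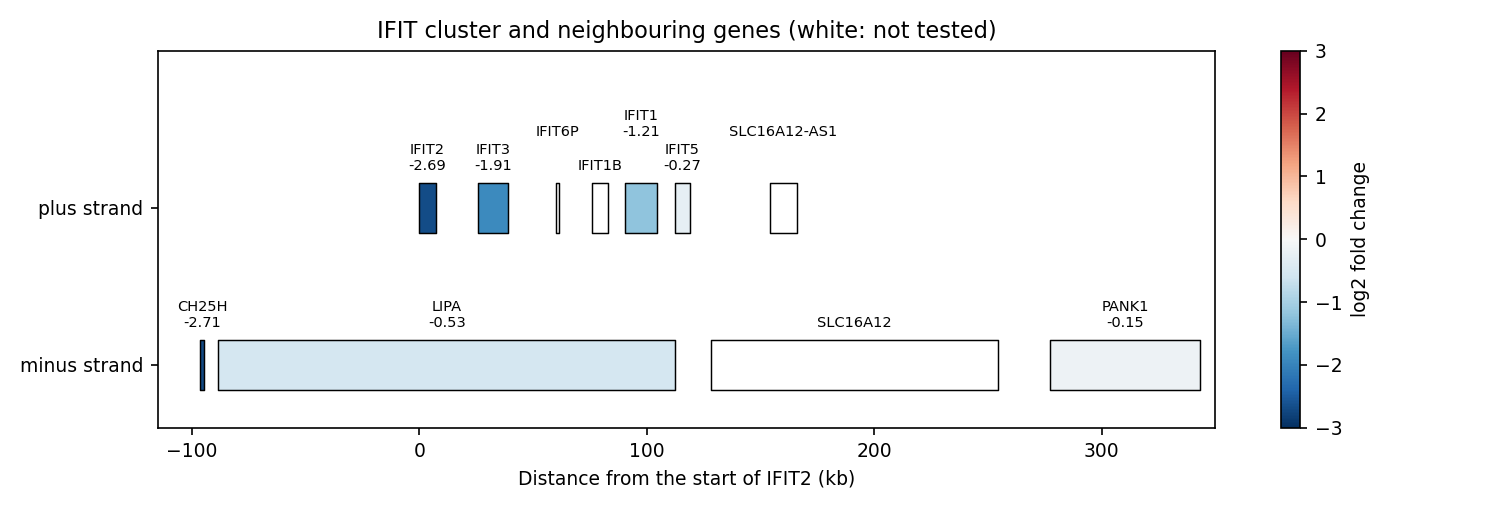
IFIT genes and their neighbours by distance from the start of IFIT2 (kb) and by strand, coloured and labelled with the log2 fold change of CELF6-OE over Control (white, not tested). The called genes are CH25H, IFIT2, IFIT3 and IFIT1, with the untested IFIT1B and IFIT6P between IFIT3 and IFIT1.

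Upstream of the family, the interferon genes that were listed and tested fell. These were IFNB1, IFNL1, IFNL2 and IFNL3. IFNG was listed but is absent from the counts, and other interferon genes were not listed. All 4 tested ligands were called lower, with log2 fold changes from -3.17 to -3.08, against 5.82% of all tested genes called lower. This list and those below were written with earlier results of these data known. IFNB1, the type I interferon of epithelial cells, was counted 11, 36 and 22 times in CELF6-OE and 206, 231 and 180 times in Control, and the type III interferon IFNL1 59, 70 and 68 times against 558, 609 and 705. Each of the ligands thus had a lower log2 fold change than any IFIT gene. IFNL2 and IFNL3 are near-identical in sequence, so their reads may not be separable.

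Of the receptors and kinases 1 of 9 was called lower, against 5.82% of all tested genes. It was IFNGR1 of the interferon gamma receptor (log2 fold change -0.59, edgeR adjusted p = 0.00115). It was not called without CELF6-OE replicate 2, Control replicate 1 or Control replicate 2, nor with scaling by library size alone. In each of those fits 0 of the 9 were called. The median over the 9 was -0.29. IFNAR1, a chain of the type I receptor, stood at 0.10 and JAK1, a kinase of that receptor, at 0.08. The others were below 0. Among these, IFNAR2 (-0.28, edgeR adjusted p = 0.027), IFNGR2 (-0.29, edgeR adjusted p = 0.0143) and IL10RB (-0.40, edgeR adjusted p = 0.00617) were short of the fold threshold. Of the 6 tested transcription factors 4 were called lower, against 5.82% of all tested genes, with a median of -0.80 over the 6. They included STAT2 (-1.01), IRF1 (-1.09) and IRF7 (-0.88), while IRF3, which is activated by phosphorylation, stood at -0.15. IRF9 was listed with 0 to 2 counts in each library and was not tested. Another annotated gene that overlaps it held 3116 to 3994 counts in a library, so reads of IRF9 may have been assigned there or lost, and its level cannot be read from these counts.

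Among genes of RNA sensing, the sensors were called lower and the listed adaptors and kinases were not called. The cytoplasmic sensors DDX58 (-1.09), IFIH1 (-1.27) and DHX58 (-2.45) and the endosomal TLR3 (-1.63) fell. This makes 4 of 8 called lower, against 5.82% of all tested genes. The adaptor MAVS stood at 0.18 and the kinase TBK1 at -0.05. The adaptor TICAM1 stood at -0.27 (edgeR adjusted p = 0.118). The kinase IKBKE, at -0.34 (edgeR adjusted p = 0.024), was short of the fold threshold. Among genes of the RNA cap, whose methylation IFIT1 reads, 1 of 5 was called lower, against 5.82% of all tested genes. It was CMTR1, the interferon-inducible 2'-O methyltransferase of the first nucleotide (log2 fold change -0.63, SE 0.07, edgeR adjusted p = 0.000212). This call was lost without CELF6-OE replicate 2. CMTR2, which methylates the second nucleotide, stood at 0.16. Of the 13 subunits of eIF3, the translation factor that IFIT1 and IFIT2 bind, 0 were called in either direction. Of all tested genes 5.82% were called lower and 1.35% higher. The median over the 13 was 0.13, with a range of -0.06 to 0.27. EIF3L (0.24, edgeR adjusted p = 0.0176) and EIF3J (0.27, edgeR adjusted p = 0.028) were short of the fold threshold.

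Other interferon-induced effectors were called lower in 20 of 20 cases, against 5.82% of all tested genes, with a median log2 fold change of -1.67. Because the list was written with earlier results known, this count is not independent of these data. The effectors ran from BST2, which tethers virions (-2.81), and IFITM1, which blocks entry (-2.77), to OAS3, a synthetase of the RNase L pathway (-0.61). Among them 2 had a lower log2 fold change than IFIT2, 9 than IFIT3 and 16 than IFIT1, and all 20 had a lower one than IFIT5. CELF6-OE replicate 3 was the highest of its group for all 20 as well. Their median per library, on the log2 scale over the Control mean, was -1.90, -1.99 and -1.23 in CELF6-OE and -0.03, 0.03 and 0.01 in Control.

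**Figure D5:**
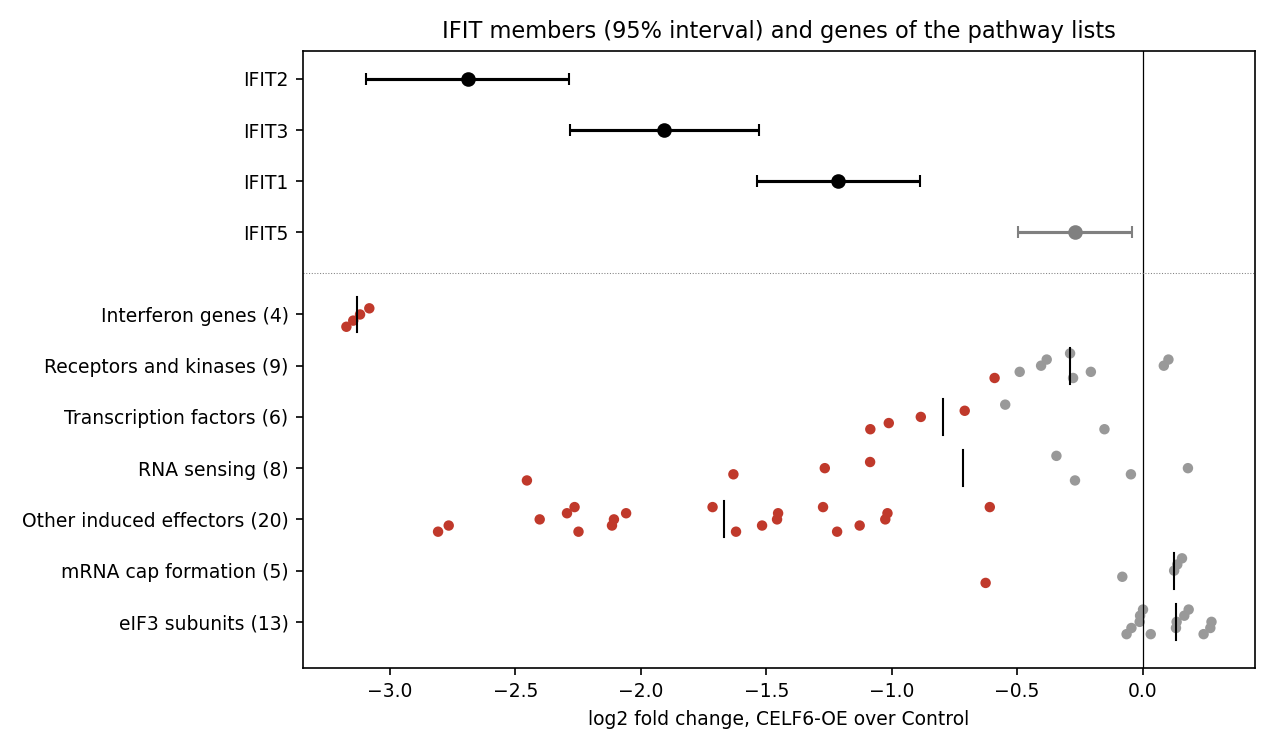
Log2 fold change of CELF6-OE over Control for the IFIT genes, with 95% intervals (grey, not called), and for each tested gene of 7 lists (red, called lower; grey, not called; black tick, median; number tested in brackets). IFIT2, IFIT3 and IFIT1 lie among the effectors, IFIT5 lies to the right of them at -0.27, and the eIF3 subunits lie from -0.06 to 0.27.

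The genes whose profile over the 6 libraries was most like each member were found by Euclidean distance of log2 CPM from the Control mean. Nearest to IFIT1 were IFIH1 (distance 0.14), CTSO (0.22) and APOL6 (0.22). Those nearest to IFIT2 were CASP1 (0.29), GBP4 (0.31) and HCP5 (0.35), and those nearest to IFIT3 were GMPR (0.26), CTSS (0.28) and CA9 (0.31). IFIT5 was nearest to C3orf38 (0.08), TMEM87A (0.08) and NRCAM (0.10), none of which was called. No member was among the 3 nearest of another, and IFIT3 was the 94th nearest to IFIT2 among the 15847 tested genes. Profiles were not scaled, so unequal fold changes alone set members apart by this distance.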

How the data were processed

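A549 RNA was prepared by the authors as poly(A) libraries, aligned to GRCh38 with TopHat2 and counted over reads with a unique location. Which program counted the reads, with which strand option and on which annotation, is not given in the sources used here. The authors deposited read counts per gene, whole and not normalized, and FPKM values, which scale by transcript length and mapped fragments. Counts were tested with edgeR 4.0.16 (quasi-likelihood, TMM, R 4.3.3) on the 15847 genes kept by filterByExpr (minimum count 10), with a prior count of 0.125 and Benjamini-Hochberg adjustment. Alternatives used DESeq2 1.42.0, limma 3.58.1, other scalings and filters, and each library left out. FPKM served for levels, ratios and exact permutation tests (scipy 1.17.1). GENCODE v44 held 29032 of the gene identifiers (97.1%) with a matching chromosome.

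Library totals were 33748328 to 37920700 counts. A count of 0 allows up to 3, for counting error only. The labels call the replicates biological but do not name separate cultures, so p-values measure the spread between these samples. Members of the family and the lists of ligands, receptors and kinases, transcription factors, RNA sensors, cap genes, eIF3 subunits, effectors and cell markers were chosen with earlier results of these data known. Other named genes were the 3 nearest in profile to each member, those sharing the IFIT symbol, and those within 200 kb. The test was checked on simulated counts. Not all values of these lists are reported here.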

Additional observations from a re-analysis of the deposited data

How the results depend on the processing

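The calls of IFIT1, IFIT2 and IFIT3 and the lack of a call for IFIT5 held in all 19 alternatives, with 3 members called lower in each. IFIT5 passed the adjusted p, but not the fold threshold, with no filter on low counts (log2 fold change -0.27) and without Control replicate 3, with a range of -0.37 to -0.18 over the 6 fits that each left out 1 library. With no filter, edgeR put infinite weight on the spread shared across genes, so the spread of single genes did not enter that test. Its adjusted p is therefore not comparable with that of the main fit. The cause of the change without Control replicate 3 was not tested. A fold threshold of 2 gave 475 genes lower and 64 higher over the whole table. Leaving out 1 library at a time gave 672 to 989 genes lower and 107 to 371 higher, against 922 and 214 with all libraries. The 107 came without CELF6-OE replicate 2, and leaving out Control replicate 2 gave 115 and Control replicate 1 gave 371. Another scaling moved the median of all tested genes to at most 0.05 on the log2 scale. The number of libraries limits what can be said of IFIT5, and counts near 0 limit IFIT1B and CH25H.

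Same-numbered libraries deviated from their group means with correlations of -0.01, -0.02 and -0.07. These gave no sign that replicate numbers pair the samples, but 3 libraries per group cannot exclude it. With the replicate number as a block, edgeR gave log2 fold changes of -1.23 for IFIT1 (adjusted p = 4.51e-05), -2.73 for IFIT2 (adjusted p = 1.14e-07), -1.95 for IFIT3 (adjusted p = 9.77e-07) and -0.26 for IFIT5 (adjusted p = 0.124). It called 921 genes lower and 201 higher.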
